A study of Mus musculus with 6 samples.

Results

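Cytosolic ribosomal protein genes encode the proteins that, with ribosomal RNA, make up the small and the large subunit of the ribosome. Members were taken by gene symbol: Rpl or Rps followed by a digit, without names ending in -ps and without the Rps6k kinases, plus Rpsa and Rack1. The rule found 84 of the 32285 genes counted, of which 34 encode small-subunit proteins and 48 large-subunit proteins. The other 2, Rps19bp1 and Rpl7l1, carry the symbol of a subunit but encode proteins that are not part of the mature ribosome. Their UMIs (unique molecular identifiers, 1 per captured transcript) were read in 6 single-cell 10X 3′ libraries of CD45+ and CD11b+ cells sorted from whole brain after cold Dounce dissociation. The animals were 3 male C57BL/6J mice at P89, and the cells of each mouse were captured once with the V3.0 kit and once with the V3.1 kit. Mice 1 and 3 were processed without transcription and translation inhibitors (DNC-NONE), and mouse 2 with actinomycin D, triptolide and anisomycin (DNC-INHIB). The cocktail was therefore used in 1 mouse, so that its effect and the difference between that mouse and the other 2 cannot be told apart.

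Ribosomes translate mRNA into protein: the small subunit reads the codons, and the large subunit joins the amino acids and passes the chain through an exit tunnel. Subunit proteins are needed in nearly equal numbers, their mRNAs are among the most abundant in many cells, and most begin with a run of pyrimidines through which growth signals control their translation. Microglia are long-lived macrophages of the brain parenchyma, border macrophages line the meninges, the choroid plexus and the perivascular spaces, and neutrophils are short-lived granulocytes whose ribosome production falls as they mature.

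The deposited matrices held 29412 barcodes and 83133615 UMIs, of which 5530690, or 6.65%, came from members. In the V3.0 libraries of mice 1, 2 and 3 there were 15109090, 17006892 and 6275898 UMIs over 4592, 5637 and 4401 barcodes. The V3.1 libraries of the same mice held 11175790, 14693129 and 18872816 UMIs over 3689, 4963 and 6130 barcodes. The V3.0 library of mouse 3 stood apart: its median was 809 UMIs per barcode, where the remaining 5 had 3031 to 3409. The cell filter (1000 to 4000 genes, up to 12000 UMIs and up to 15% of UMIs from mitochondria) kept 21.5% of its barcodes and 70.0% to 76.8% of theirs. Pairs of libraries shared 1 to 14 barcode sequences, and the cells of each library were kept apart. In all, 19725 cells passed.

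Cells were clustered without the members, so that no member placed a cell in its type, and clusters were named from marker genes. There were 18957 microglia-like cells, 124 border-macrophage-like cells, 294 neutrophil-like cells and 217 monocyte-like cells, and 32 T- or NK-like and 101 unnamed cells were not used. Border-macrophage-like cells were few: the libraries held 17, 41 and 5 with V3.0 and 14, 28 and 19 with V3.1 in mice 1, 2 and 3, and the V3.0 library of mouse 3, under the minimum of 10 cells, gave no sum for this type. All 12 microglial markers were detected in microglia-like cells, with a summed mean of 30281 counts per 1e6 UMIs (CPM). The 10 border macrophage markers summed to a mean of 4092 CPM in border-macrophage-like cells and 284 CPM in microglia-like cells, with Ms4a7 leading. Microglial markers in those cells reached 5551 CPM, 18.3% of their microglial level, and the part of free or shared RNA in that signal was not tested. Neutrophil markers, led by S100a9, took 417843 CPM in neutrophil-like cells and 979 CPM in microglia-like cells.

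Members took a far larger part of the mRNA in border-macrophage-like cells than in microglia-like cells, and the smallest part in neutrophil-like cells. In microglia-like cells the member share was 6.56%, 6.68% and 6.65% of UMIs in the V3.0 libraries of mice 1, 2 and 3 and 7.05%, 6.98% and 6.82% in the V3.1 libraries. Border-macrophage-like cells gave 15.9% and 19.0% with V3.0 in mice 1 and 2, and 19.9%, 19.2% and 19.9% with V3.1 in mice 1, 2 and 3. Neutrophil-like cells gave 2.92%, 3.28% and 3.79% with V3.0 and 2.65%, 3.38% and 2.84% with V3.1. The ranges of these 3 cell types did not overlap in any library. Across libraries the mean share was 6.79% ± 0.195 (SD, n = 6) in microglia-like, 18.8% ± 1.66 (n = 5) in border-macrophage-like and 3.14% ± 0.421 (n = 6) in neutrophil-like cells. Since the types come from clusters of the same cells, differences between them are described here and carry no test.

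**Figure D1:**
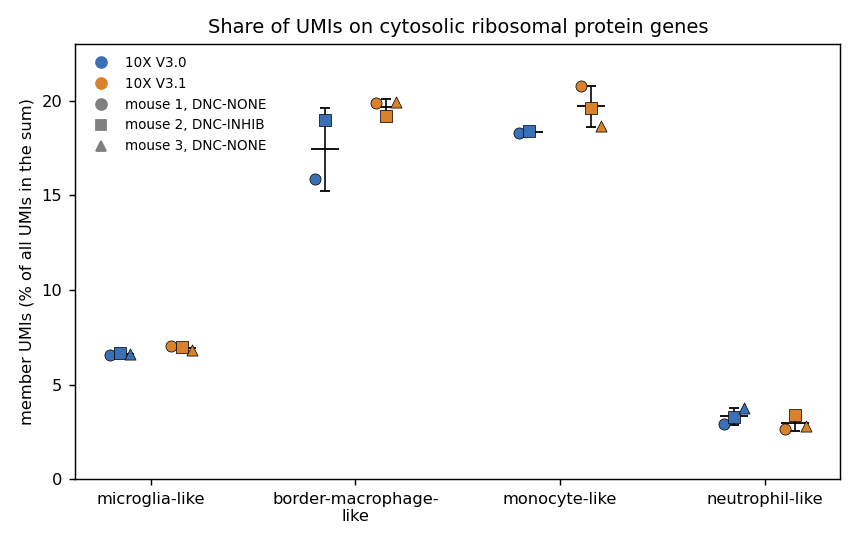
Member share of all UMIs in percent, from 0, with 1 point per library and a line for the mean of each kit with its SD, for each cell type named from markers. Border-macrophage-like and monocyte-like libraries sit between 15.9% and 20.8%, microglia-like libraries between 6.56% and 7.05%, and neutrophil-like libraries between 2.65% and 3.79%.

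Monocyte-like cells, which come from the blood, had member shares of 18.3% and 18.4% with V3.0 in mice 1 and 2 and 20.8%, 19.6% and 18.7% with V3.1. These overlapped with the border-macrophage-like values. Both subunits followed the same order: small-subunit members held 2.99% to 3.18% of UMIs in microglia-like cells, 7.62% to 9.45% in border-macrophage-like cells and 1.29% to 1.86% in neutrophil-like cells. Large-subunit members held 3.55% to 3.85%, 8.25% to 10.5% and 1.35% to 1.93% in the same types. Counted per cell in place of per UMI, the order held, with 232 to 256 member UMIs in a microglia-like cell, 682 to 1016 in a border-macrophage-like cell and 163 to 202 in a neutrophil-like cell. Neutrophil-like cells carried more UMIs in all than microglia-like cells, 4701 to 6567 per cell against 3463 to 3815.

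The alarmins S100a8 and S100a9 filled 35.1% to 40.2% of the UMIs of neutrophil-like cells. With these 2 genes left out of the total, an alternative added after the data were seen, members took 4.78%, 5.32% and 5.84% of the remaining UMIs with V3.0 and 4.33%, 5.31% and 4.75% with V3.1. All 6 values still lay under every microglia-like library. Among the 294 neutrophil-like cells, 13 had under 1% of their UMIs in neutrophil markers: 2, 5 and 3 with V3.0 and 0, 2 and 1 with V3.1 in mice 1, 2 and 3. All 6 B cell markers were detected in these 13 cells, with 284 of their 41738 UMIs, as were all 12 microglial markers with 202 UMIs and 9 of 10 monocyte markers with 128 UMIs, against 36 UMIs of neutrophil markers. Their median member share was 16.1%, and that of the other neutrophil-like cells 2.61%. Each of the 9 neutrophil-like cells with a member share above 10% was among the 13. Without them, again an alternative added later, the neutrophil-like share was 2.57%, 2.57% and 2.98% with V3.0 and 2.65%, 3.10% and 2.75% with V3.1.

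Single subunits followed the total in border-macrophage-like cells, with a few members further up or less so. Of the 82 members with at least 10 UMIs over both types, 78 were higher in every border-macrophage-like library than in every microglia-like library, where 3.76% of 14300 genes were, and 1 was lower, against 29.4% of all genes. The median log2 ratio was 1.42 (SD 0.41 over members), beside −0.33 (SD 1.31) over all genes. The steepest ratio belonged to Rpsa, a small-subunit protein also known as the laminin receptor. It had 2328 and 2776 CPM with V3.0 in mice 1 and 2 and 3224, 3006 and 3004 CPM with V3.1, against a lowest of 630.2, a median of 664 and a highest of 712 CPM over the 6 microglia-like libraries (log2 ratio 2.10). Every border-macrophage-like library was at least 3-fold above every microglia-like library for it.

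Rpl38, a large-subunit protein needed for translation of Hox mRNAs in the embryo, reached 3616 and 2801 CPM with V3.0 and 3804, 3080.3 and 3025 CPM with V3.1 in border-macrophage-like cells, against 733 to 1042 CPM in microglia-like cells (log2 ratio 1.96). Rps28 followed with 3602 and 3593 CPM, then 4521, 3643 and 3272 CPM, against 918 to 1251 CPM (log2 ratio 1.85). Rps24, a small-subunit protein required for ribosomal RNA processing, gave 5054 and 5795 CPM, then 6653, 6486 and 6266 CPM, against 1565 to 1886 CPM (log2 ratio 1.82). For all 3 the types were far apart. Rack1, a scaffold for protein kinase C that sits on the head of the small subunit, stood at 1178 and 1594 CPM with V3.0 and 1331, 1242 and 1621 CPM with V3.1, against 327 to 440.0 CPM (log2 ratio 1.79).

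The members that followed least were those outside the mature ribosome and some paralogs. Rps19bp1, which binds Rps19 and activates the deacetylase Sirt1, had 41.1 and 14.8 CPM with V3.0 and 0, 67.8 and 20.6 CPM with V3.1 in border-macrophage-like cells, from 18 UMIs in all, against 41.1 to 52.9 CPM in microglia-like cells. Rpl7l1, a nucleolar factor of large-subunit assembly, had 95.9 and 84.1 CPM and then 34.1, 88.2 and 72.3 CPM, against 93.5 to 107 CPM. Both overlapped with microglia-like cells, with log2 ratios of −0.72 and −0.41. Rps27l, a p53 target, overlapped too, at 205 and 129 CPM, then 188, 237 and 258 CPM, against 109.8 to 132 CPM (log2 ratio 0.74). Rpl36al gave 589 and 658 CPM, then 682, 733 and 712 CPM, against 365 to 449 CPM (log2 ratio 0.77). Rpl13a, which also serves in the interferon-controlled silencing of inflammatory mRNAs in myeloid cells, had 1438 and 1747 CPM, then 1194, 1099 and 1404 CPM, against 577 to 819 CPM (log2 ratio 0.95). These last 2 were higher in every library, by less than the other subunits.

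Between border-macrophage-like and monocyte-like cells the members' counts and median lay close to those of all genes. Of 82 members, 3 were higher in every border-macrophage-like library, against 5.67% of 8977 genes, and 8 were lower, against 9.91%. The median log2 ratio was 0.00 (SD 0.26), beside −0.03 over all genes. Monocyte-like cells stood above microglia-like cells for 80 of 83 members, where 10.1% of genes were, and below for 1, where 38.6% were, with a median log2 ratio of 1.46.

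In neutrophil-like cells most subunits were low, but unevenly, and a few stayed at the microglia-like level. The CPM given here for single genes are over all UMIs, S100a8 and S100a9 included. Of 83 members with at least 10 UMIs over both types, 73 were lower in every neutrophil-like library than in every microglia-like library, beside 61.5% of 14433 genes, and 1 was higher, beside 6.46%. The median log2 ratio was −1.34 (SD 0.63 over members), and −1.09 (SD 2.32) over all genes. Without the 13 marker-poor cells it was −1.58, with 75 members lower and 1 higher. Over all genes the median was then −1.08, and of 14414 genes 9094 were lower and 924 higher. With S100a8 and S100a9 left out of every total, an alternative added later, 51 of 83 members were lower, where 6912 of 14431 genes were, and 3 were higher (Rps27a, Rps9 and Rpl9), where 1346 were. The median log2 ratio was then −0.66, beside −0.41 over all genes, and 11 of 80 members had a ratio above 0, in place of 2. The Rpl9 count is uncertain, since 77.8% of the 91-base stretches near its 3′ end are also in Rpl9-ps6. Against border-macrophage-like cells 79 of 82 members were lower, where 23.4% of 8592 genes were, and 0 higher, where 8.15% were, with a median log2 ratio of −2.73. The 10th and 90th percentiles of members lay at log2 ratios of −1.92 and −0.56 to microglia-like cells, a wider spread than the 1.12 to 1.79 between border-macrophage-like and microglia-like cells. All genes spread more widely too, at −2.72 and 1.71 for neutrophil-like and −1.17 and 0.87 for border-macrophage-like cells.

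Rps27a, made as a fusion of ubiquitin with a small-subunit protein, was the 1 member above every microglia-like library on this scale. It had 2049.8, 1769.7 and 1939 CPM with V3.0 and 2022, 2016 and 1879 CPM with V3.1 in neutrophil-like cells, against a lowest of 1274, a median of 1352 and a highest of 1525 CPM in microglia-like cells (log2 ratio 0.50, and 0.45 without the marker-poor cells). Rps9, which lies at the mRNA entry of the small subunit, had 1097, 1175 and 1538 CPM and then 1507, 1709.6 and 1664 CPM, against 1179 to 1449 CPM (log2 ratio 0.14). Its values overlapped between the types, with 4 of the 6 neutrophil-like libraries above all microglia-like libraries. Rpl41, the smallest protein of the large subunit, had 953, 919 and 998 CPM, then 1008, 1185 and 840.2 CPM, against 1114 to 1488 CPM (log2 ratio −0.32). With S100a8 and S100a9 left out the direction turned, at 1404 to 1859 CPM against 1115 to 1489 CPM (log2 ratio 0.36), and the types overlapped on both scales. Rpl41 shares 27.1% of the 91-base stretches near its 3′ end with Gm10076, so that its count is uncertain.

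The lowest ratios among subunit proteins included 4 of the large subunit. Rpl10a, part of the mobile stalk through which spent tRNA leaves, had 62.7, 94.1 and 139 CPM with V3.0 and 14.5, 69.0 and 27.2 CPM with V3.1 in neutrophil-like cells, against 522 to 547 CPM in microglia-like cells (log2 ratio −2.98, and −3.84 without the marker-poor cells). Rpl12, at the base of the stalk that recruits elongation factors, gave 59.5, 102 and 155 CPM and then 11.6, 66.0 and 65.3 CPM, against 510.1 to 604 CPM (−2.83, and −3.64 without those cells). Rpl3, next to the peptidyl transferase centre, gave 65.8, 117 and 123 CPM and then 34.8, 48.0 and 46.2 CPM, against 406 to 579.9 CPM (−2.78, and −3.27). Each of the 3 was lower in all neutrophil-like libraries by at least 3-fold, and still lower in all of them, at log2 ratios of −2.31, −2.16 and −2.10, with S100a8 and S100a9 left out. Rpl36a, at the tRNA exit site, had 43.9, 79.1 and 57.3 CPM, then 31.9, 66.0 and 48.9 CPM, against 358 to 407 CPM (−2.78), and shares 48.6% of its 3′ stretches with Rpl36a-ps1. Rps19bp1 was close to absent, with 4 UMIs in 294 neutrophil-like cells, and 6.27, 0, 0, 0, 6.00 and 0 CPM in the 6 libraries, against 41.1 to 52.9 CPM. Rack1 had 132, 120.5 and 188 CPM, then 52.2, 72.0 and 97.9 CPM (−1.87), and Rpsa 216, 354 and 434 CPM, then 125, 279 and 212 CPM (−1.30).

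**Figure D2:**
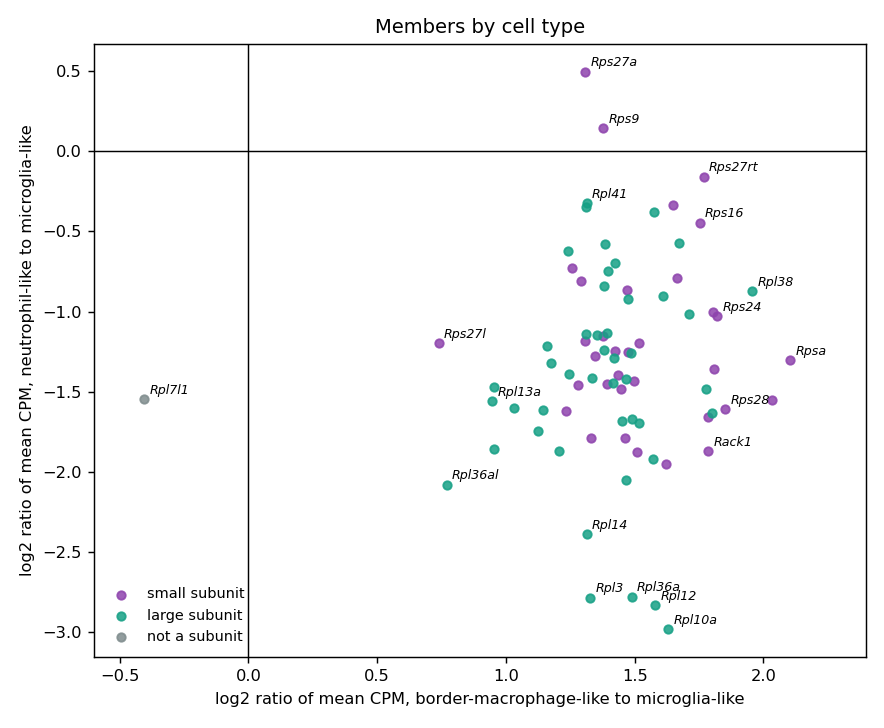
Log2 ratio of mean CPM to microglia-like cells, for border-macrophage-like cells on the horizontal and neutrophil-like cells on the vertical axis, with 1 point for each of the 80 members drawn, coloured by subunit. Horizontal values gather around 1.42 and vertical values spread around −1.34, from Rpl10a at −2.98 to Rps27a at 0.50.

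The make-up of the member UMIs shifted accordingly. A 3′-end tag is counted once per transcript, so that the following shares were not divided by gene length. In microglia-like cells members with many UMIs were Rps29 with 3.43% of member UMIs, Rps24 with 2.52%, Rps21 with 2.27% and Rpl39 with 2.26%. Border-macrophage-like cells were led by Rps24 at 3.22% and Rps29 at 3.04%. In neutrophil-like cells Rps27a led with 6.29% (5.11% to 7.64% over libraries), against 2.03% in microglia-like cells, ahead of Rps9 with 4.67% and Rpl37 with 3.75%. Rps29, a zinc-binding protein of the small subunit, had 2761, 2439.7 and 2276 CPM with V3.0 and 2489.8, 2048 and 1926 CPM with V3.1 in microglia-like cells and 634 to 1047 CPM in neutrophil-like cells. Rps21 stood at 1586, 1478 and 1472 CPM, then 1739, 1562 and 1427 CPM in microglia-like cells, against 545 to 717 CPM in neutrophil-like cells. Neither gene overlapped between the 2 types.

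Several members are paralogs of a standard subunit, and those that serve mainly in testis or striated muscle were scarce here. Rpl10l, a retrogene of the testis, had 0 UMIs in every cell type, while its parent Rpl10, needed for the last step of large-subunit maturation, had 984, 1071 and 1064 CPM with V3.0 and 1158, 1159 and 1153 CPM with V3.1 in microglia-like cells. The Rpl10 count is uncertain, since every 91-base stretch near its 3′ end is also in Rpl10-ps3. Rpl3l, the striated-muscle form of Rpl3, had 4 UMIs in all microglia-like cells, 18 in neutrophil-like and 43 in monocyte-like cells, at 0 to 18.8 CPM in neutrophil-like libraries and 18.9 to 67.3 CPM in monocyte-like libraries. Its 3′ end lies 498 bases upstream of Msrb1, whose mean level was 23.9 CPM in microglia-like, 1364 CPM in neutrophil-like and 1112 CPM in monocyte-like cells, and whether Msrb1 transcripts added to its count was not tested. Rpl39l, the male germ cell form of Rpl39, had 196 UMIs in microglia-like cells, at 2.18, 1.48 and 2.79 CPM with V3.0 and 3.25, 3.04 and 4.23 CPM with V3.1, and 0 in border-macrophage-like cells.

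Rpl22l1 and its parent Rpl22, an RNA-binding pair known for opposing roles in blood cell development, were both present in every type. Rpl22l1 had 162, 164 and 175 CPM with V3.0 and 142, 141 and 146 CPM with V3.1 in microglia-like cells, 260.2 to 512 CPM in border-macrophage-like and 31.9 to 86.6 CPM in neutrophil-like cells. Rpl22 had 565, 581 and 579 CPM, then 615, 621 and 581 CPM in microglia-like cells, 1621 to 1928 CPM in border-macrophage-like and 66.6 to 245 CPM in neutrophil-like cells. Parent and paralog thus kept the order of the cell types. Rpl7, the parent of Rpl7l1, had 560.3, 614 and 580.2 CPM, then 521, 561 and 644 CPM in microglia-like cells, 1316 to 1621 CPM in border-macrophage-like and 212 to 327 CPM in neutrophil-like cells. Rps4x, the X-linked small-subunit gene, stood at 1093, 1165 and 1106 CPM, then 1075, 1136 and 1092 CPM in microglia-like cells, and the symbol Rps4l was not among the genes counted. Rps27 had 973, 950.2 and 879.7 CPM, then 919.5, 793 and 755 CPM, and its near-copy Rps27rt 30.7, 31.5 and 31.9 CPM, then 22.3, 29.1 and 25.3 CPM. Rps27 and Rps27rt share 98.4% and 89.8% of their 3′ stretches with each other, so that UMIs cannot be told apart reliably between them.

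Between kits, microglia-like cells of all 3 mice gave members a larger share with V3.1, at a mean of 6.95% ± 0.119 (SD, n = 3) against 6.63% ± 0.0630 (n = 3), a difference of 0.321 points. The values of the kits did not overlap. The kits also filled the microglia-like clusters unequally: a cluster led by mt-Nd3 and Khdrbs3 held 1466, 1266 and 294 cells with V3.0 and 161, 184 and 324 with V3.1, and a cluster led by Ccdc152, AY036118 and Gm42418 held 173, 109 and 59, then 886, 801 and 1240. With the clusters weighted alike in every library, an alternative added after the data were seen, the share was 6.75%, 6.66% and 6.81% with V3.0 and 7.24%, 6.98% and 6.91% with V3.1, a difference of 0.302 points, higher in 3 of 3 mice. Single subunits moved both ways: of the 82 members tested among 12011 genes, 13 rose, beside 6.37% of all genes, and 3 fell, beside 7.38% (adjusted p below 0.05 by edgeR's quasi-likelihood test after Benjamini-Hochberg adjustment). Members called in either direction stood beside 13.8% of all genes. No member passed the second rule, a log2 fold change beyond 0.58 either way, beside 3.07% of all genes. With mouse as a block 2 did, Rps19 and Rpl39l, and of the other alternatives 6 had 1 of this pair past the rule and 8 had 0. The members' median log2 fold change was 0.11 (SD 0.19), with 61 of 82 above 0, beside 0.00 (SD 0.37) over all genes. Small-subunit members gave 6 that rose and 1 that fell of 34, and large-subunit members 7 and 2 of 46.

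Rps19, a small-subunit protein required to finish the small ribosomal RNA and mutated in Diamond-Blackfan anemia, had the largest fall. It had 527, 587 and 557 CPM in the V3.0 libraries of mice 1, 2 and 3 and 322, 364 and 427 CPM in the V3.1 libraries. All V3.1 values lay under all V3.0 values. The log2 fold change was −0.57 (SE 0.09, adjusted p = 0.00252 by edgeR's quasi-likelihood test after Benjamini-Hochberg adjustment, lower in 3 of 3 mice). Rpl13a had 750.0, 819 and 790.2 CPM with V3.0 and 577, 624 and 723 CPM with V3.1, again without overlap. Its log2 fold change was −0.28 (SE 0.08, adjusted p = 0.0458 by edgeR's quasi-likelihood test after Benjamini-Hochberg adjustment, lower in 3 of 3 mice). Rpl39, a small basic protein that lines the exit tunnel, had 1682, 1673 and 1656 CPM with V3.0 and 1479, 1354 and 1330.5 CPM with V3.1. Those kits did not overlap either, and the log2 fold change was −0.25 (SE 0.06, adjusted p = 0.0210 by edgeR's quasi-likelihood test after Benjamini-Hochberg adjustment, lower in 3 of 3 mice). Rps19 lies on chromosome 7 from 24884371 to 24889806 on the plus strand, Rpl13a on chromosome 7 from 45125558 to 45128761 on the minus strand and Rpl39 on chromosome X from 37082520 to 37085402 on the minus strand (GRCm38).

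Rpl31, which sits at the rim of the exit tunnel, had the largest rise among the members that passed, from 215, 205 and 235 CPM with V3.0 to 289, 275 and 275 CPM with V3.1. Its log2 fold change was 0.38 (SE 0.07, adjusted p = 0.00400 by edgeR's quasi-likelihood test after Benjamini-Hochberg adjustment, higher in 3 of 3 mice). Rpl24, which forms a bridge between the subunits, went from 589, 599.7 and 583 CPM to 796, 760.1 and 701 CPM. In Rpl24 the log2 fold change was 0.36 (SE 0.07, adjusted p = 0.00452 by edgeR's quasi-likelihood test after Benjamini-Hochberg adjustment, higher in 3 of 3 mice). In neither did the kits overlap.

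Rps23, a protein of the decoding centre, went from 760.5, 803 and 792 CPM with V3.0 to 982, 1001 and 972 CPM with V3.1 (log2 fold change 0.34, SE 0.06, adjusted p = 0.00452 by edgeR's quasi-likelihood test after Benjamini-Hochberg adjustment, higher in 3 of 3 mice). Rps25, on which several viral internal ribosome entry sites depend, went from 542, 554 and 595 CPM to 699, 680.1 and 737 CPM, a log2 fold change of 0.34 (SE 0.07, adjusted p = 0.00603 by edgeR's quasi-likelihood test after Benjamini-Hochberg adjustment, higher in 3 of 3 mice). Other members that rose included Rps14, Rpl18, Rpl36al, Rpl19, Rps9, Rpl30, Rps27a and Rpl23, with log2 fold changes from 0.20 for Rpl23 to 0.29 for Rps14. Rpl39l, whose counts were low, had a log2 fold change of 0.87 (SE 0.27) and did not pass (adjusted p = 0.0504 by edgeR's quasi-likelihood test after Benjamini-Hochberg adjustment, higher in 3 of 3 mice). Blocking on mouse took it past the test (adjusted p = 0.0252), as did leaving the gene filter off (adjusted p = 0.0253) and, narrowly, leaving out the cluster of lowest share or the mitochondrial genes, while DESeq2 did not call it (adjusted p = 0.137). Rack1 stood at 411, 440.0 and 434 CPM with V3.0 and 327, 373 and 438 CPM with V3.1, and Rpsa at 630.2, 692 and 637 CPM and then 667, 712 and 662 CPM, and neither passed.

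**Figure D3:**
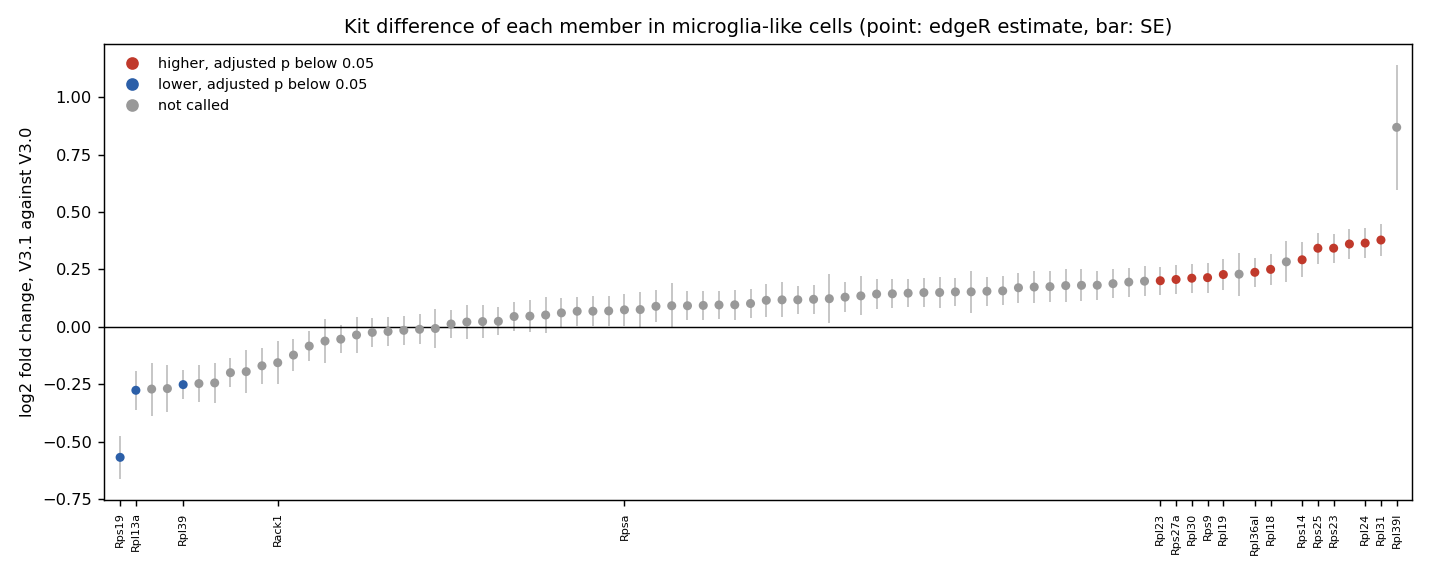
Log2 fold change of V3.1 against V3.0 in microglia-like cells for the 82 members tested, in order of size, with standard errors and with members at adjusted p below 0.05 marked. Values run from Rps19 at −0.57 to Rpl39l at 0.87, which did not pass, and 61 of 82 lie above 0.

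**Figure D4:**
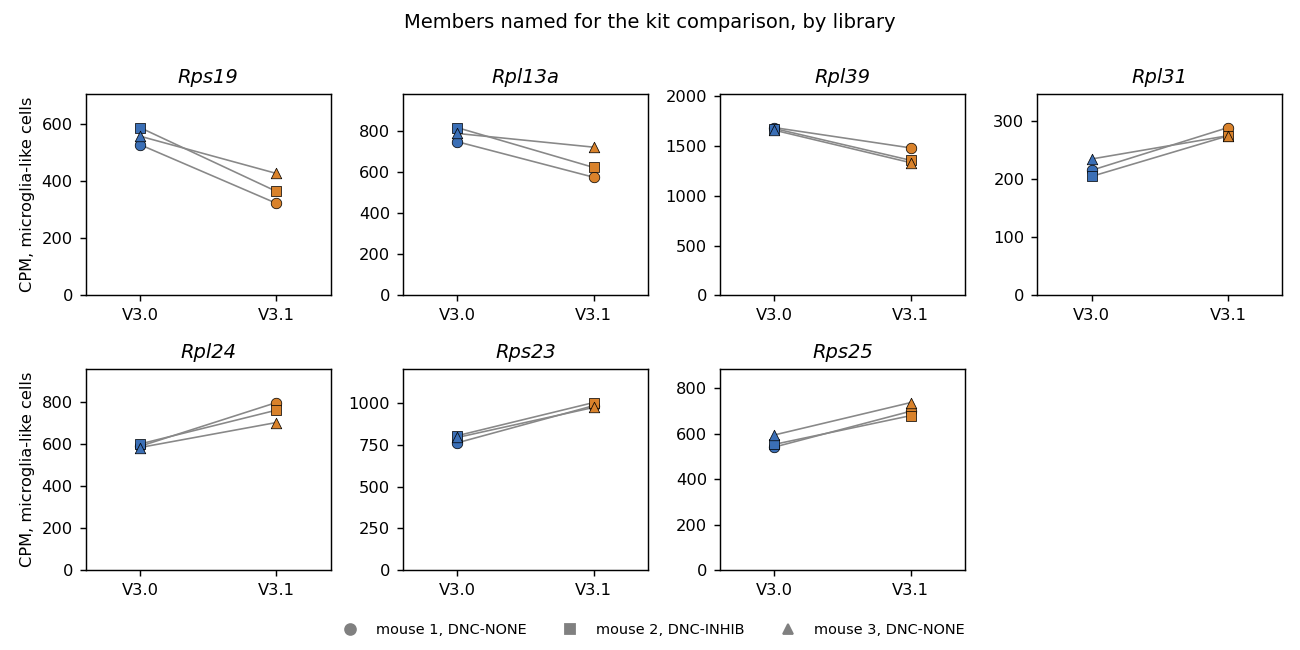
CPM of Rps19, Rpl13a, Rpl39, Rpl31, Rpl24, Rps23 and Rps25 in microglia-like cells, with 1 point per library and the 2 libraries of a mouse joined by a line. The first 3 fell from V3.0 to V3.1 in all 3 mice and the other 4 rose in all 3.

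The number of members called depended on how the mice entered the fit. DESeq2 called 18 higher and 4 lower, beside 651 higher and 662 lower of 12011 genes. With mouse as a block, 34 members rose and 11 fell, beside 29.5% of 12265 genes (14.5% higher and 15.1% lower). Without mouse 2, edgeR called 0 of the 82 members (22 at an unadjusted p below 0.05, of which 19 were higher, and DESeq2 was not run on this subset). It called 3 higher and 2 lower without mouse 1, 7 and 3 without mouse 3, and 5 and 1 without the V3.0 library of mouse 3 alone. Over all genes these fits called 2.52%, 3.56%, 10.3% and 8.05% in the same order. Scaled to the members' own total, which moved the all-gene median to −0.08, 5 members were higher and 9 lower, with a members' median of 0.03. Of all 12011 genes, 422 were higher and 1568 lower on that scale. Mitochondrially encoded genes, a sign of RNA state, went the other way from the member share, at 1.89%, 2.18% and 1.71% of microglia-like UMIs with V3.0 and 0.835%, 0.932% and 1.15% with V3.1. With their UMIs left out of the total the member share was 6.69%, 6.83% and 6.76% with V3.0 and 7.11%, 7.04% and 6.90% with V3.1. A fit without these genes called 14 members higher and 3 lower, beside 770 higher and 874 lower of 11998 genes. Gm42418, a transcript over the ribosomal RNA locus that was chosen after its values were seen, had 489, 460.2 and 338 CPM and then 1871, 2301 and 1942 CPM, and its part in the members' shifts was not tested. Transcript length and GC content had Spearman correlations of 0.079 and −0.046 with the kit fold change over the 82 members, as a description across genes.

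In border-macrophage-like cells the kit difference had the same sign for the total share, higher with V3.1 in 2 of 2 mice with both kits, and no single subunit passed. The difference lay mostly in mouse 1, whose V3.0 library stood low: the share went from 15.9% to 19.9% there and from 19.0% to 19.2% in mouse 2. At 500 genes per cell 1 of 2 mice was higher, with 17.7% and then 17.5% in mouse 2. The 10 border macrophage markers, all detected and led by Ms4a7, moved with the kit in these cells, at 6711 and 3944 CPM in sum with V3.0 in mice 1 and 2 and 3463, 3101 and 3241 CPM with V3.1. Mitochondrially encoded genes moved too, at 2.44% and 2.24% and then 1.10%, 1.41% and 1.43% of UMIs. In both the V3.0 values lay above all V3.1 values. With mitochondrial UMIs left out of the total the share was 16.3% and 19.4%, then 20.1%, 19.5% and 20.2%, and the part of the markers was not tested. Among the 79 members tested of 1546 genes, edgeR called 0, beside 0.453% of all genes, with 7 at an unadjusted p below 0.05, and DESeq2 called 0, beside 0.388% of all genes, with 5. With mouse as a block edgeR also called 0, with 3 at an unadjusted p below 0.05, beside 0.904% of 1659 genes. The members' median log2 fold change was 0.22, beside 0.01 over all genes, and 0.07 without mouse 1, 0.45 without mouse 2 and 0.19 without mouse 3. Rps25, with 1150.5 and 1118 CPM with V3.0 in mice 1 and 2 and 2013, 1513 and 1776 CPM with V3.1, came closest. It gave a log2 fold change of 0.65 (SE 0.22, adjusted p = 0.382 by edgeR's quasi-likelihood test after Benjamini-Hochberg adjustment, higher in 2 of 2 mice). Rps19 stood at 1575 and 2207 CPM, then 1211, 1235 and 1889 CPM, and its kits overlapped. The V3.0 arm held 58 cells of this type in 2 libraries, which limits what was detectable.

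In neutrophil-like cells the 2 members that passed were again Rps19 and Rpl13a, and both fell, but the calls rested on a few cells. Members took a larger share with V3.1 in 1 mouse of 3, at a mean of 2.96% ± 0.383 (SD, n = 3) against 3.33% ± 0.436 (n = 3), a difference of −0.375 points that became 0.121 points without the marker-poor cells. Mitochondrially encoded genes held 0.602%, 1.09% and 0.954% of their UMIs with V3.0 and 0.282%, 0.530% and 0.390% with V3.1, and with these left out of the total the member share was 2.94%, 3.32% and 3.83%, then 2.65%, 3.40% and 2.85%. Of 79 members tested among 2786 genes, 0 rose and 2 fell by edgeR, beside 0.503% of all genes called and 0.359% called lower, with 1 higher and 21 lower at an unadjusted p below 0.05, and DESeq2 called 1, lower, beside 0.323% of all genes. The median was −0.23, beside −0.00 over all genes. Rps19 had 191, 294 and 303 CPM with V3.0 and 66.6, 123 and 109 CPM with V3.1, without overlap. Its log2 fold change was −1.39 (SE 0.26, adjusted p = 0.0227 by edgeR's quasi-likelihood test after Benjamini-Hochberg adjustment, lower in 3 of 3 mice). Rpl13a had 332, 267 and 360.0 CPM with V3.0 and 154, 174 and 166 CPM with V3.1, again apart. For Rpl13a it was −0.96 (SE 0.19, adjusted p = 0.0276 by edgeR's quasi-likelihood test after Benjamini-Hochberg adjustment, lower in 3 of 3 mice).

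Of the 13 marker-poor cells 10 came from V3.0 libraries, and without them edgeR called 0 members in neutrophil-like cells, beside 0.370% of 2702 genes, with 3 higher and 3 lower at an unadjusted p below 0.05, and DESeq2 was not run on this subset. Rps19 then stood at 125, 148 and 209 CPM with V3.0 and 66.6, 105 and 95.8 CPM with V3.1 (log2 fold change −0.81, adjusted p = 0.351 by edgeR's quasi-likelihood test after Benjamini-Hochberg adjustment, lower in 3 of 3 mice). Rpl13a stood at 288, 156 and 243 CPM, then 154, 133 and 164 CPM, and the kits overlapped. The members' median moved from −0.23 to −0.04. Leaving out mouse 2, mouse 3 or the V3.0 library of mouse 3 left 0 members called by edgeR, with 18, 8 and 12 at an unadjusted p below 0.05. Over all genes these fits called 0.175%, 0.139% and 0.321%. The log2 fold changes stayed about as large there, at −1.35, −1.43 and −1.31 for Rps19 and −1.04, −0.94 and −0.90 for Rpl13a. Leaving out mouse 1 left 1 member called, beside 0.585% of all genes. With mouse as a block 5 members fell, Rps19, Rpl13a, Rack1, Rpl3 and Rpl39, beside 1.03% of 3212 genes.

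Whether the kit effect itself differed between cell types was tested in 1 fit, with library as a block. Of 81 members, edgeR called 0 for border-macrophage-like against microglia-like cells, beside 0.0147% of 6807 genes, with 1 at an unadjusted p below 0.05. For neutrophil-like against microglia-like cells it called 0, beside 0.162%, with 15 at an unadjusted p below 0.05, all lower, and 0 of them without the marker-poor cells. DESeq2 was not run for this test. Rps19 differed by −0.73 on the log2 scale in neutrophil-like cells (adjusted p = 0.706 by edgeR's quasi-likelihood test after Benjamini-Hochberg adjustment), and Rpl13a by −0.60 (adjusted p = 0.854 by the same test). The larger fall of these 2 genes in neutrophil-like cells was therefore not shown to differ from that in microglia-like cells.

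The cocktail blocks transcription and translation during dissociation, and no member was called between the mouse that received it and the other 2, a comparison in which 1 mouse makes up an arm. In microglia-like cells the share in the DNC-INHIB mouse was 6.68% with V3.0, against 6.56% and 6.65% in the DNC-NONE mice, and 6.98% with V3.1, against 7.05% and 6.82%. With V3.1 it lay between them, and with V3.0 the mean difference of 0.0812 points became −0.015 points with equal numbers of cells and −0.122 points with clusters weighted alike. With both kits added per mouse, edgeR called 0 of 82 members, beside 1.15% of 13092 genes (0.596% higher and 0.558% lower), with 0 at an unadjusted p below 0.05, and DESeq2 called 0, with 0 at an unadjusted p below 0.05. The second rule also called 0, beside 0.756% of all genes. The members' median log2 fold change was 0.02, with 57 of 82 above 0, beside −0.00 over all genes, and scaled to the members' own total it was −0.00, with 40 of 82 above 0. Rpsa, at 692 CPM with V3.0 and 712 CPM with V3.1 in the DNC-INHIB mouse against 630.2 and 637 CPM, and 667 and 662 CPM, in the DNC-NONE mice, lay above both with each kit (log2 fold change 0.12, SE 0.10). Rpl39l lay below both with each kit, at 1.48 and 3.04 CPM against 2.18 and 2.79 CPM, and 3.25 and 4.23 CPM (log2 fold change −0.57, SE 0.30). Neither was called, and such a position was not particular to these 2 members. Rps23, Rps4x and Rpl10 also lay above both DNC-NONE mice with each kit. What size of change could be detected with a single treated mouse is not given here.

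Shares in the rarer types gave no common direction for the cocktail. Neutrophil-like cells had 3.28% in the DNC-INHIB mouse with V3.0, between the 2.92% and 3.79% of the DNC-NONE mice, and 3.38% with V3.1, above 2.65% and 2.84%. Border-macrophage-like cells had 19.2% in the DNC-INHIB mouse with V3.1, below 19.9% and 19.9%, and 19.0% with V3.0, above the 15.9% of mouse 1.

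Other genes of protein synthesis were read from lists. The 5 ribosomal proteins read outside the rule, Rplp1 and Fau among them, held a median of 0.671% of UMIs in microglia-like, 1.66% in border-macrophage-like and 0.404% in neutrophil-like libraries. Within them, Fau, a fusion of a ubiquitin-like protein with a small-subunit protein, was kept in neutrophil-like cells much as Rps27a was, at 2669.6 to 3356 CPM against 2474 to 2970.0 CPM in microglia-like cells. Rplp1, an acidic protein of the factor-binding stalk, was low there, at 217 to 466 CPM against 1926 to 2745 CPM. Translation factors held a median of 0.838%, 1.78% and 0.441% in the same 3 types, and ribosome assembly genes ranged over 0.126% to 0.141%, 0.135% to 0.165% and 0.0151% to 0.0261%. Assembly genes thus lay far lower in neutrophil-like cells, and overlapped between the other 2 types. These shares and CPM are over all UMIs, and S100a8 and S100a9 filled 35.1% to 40.2% of those of neutrophil-like cells. On that scale the median log2 ratio of neutrophil-like to microglia-like cells was −1.09 over all genes.

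Between kits in microglia-like cells, 0 of the 5 ribosomal proteins outside the rule were called by edgeR (4 at an unadjusted p below 0.05, with 1 lower by DESeq2), and of 22 translation factors 2 rose and 3 fell (3 and 3 by DESeq2), where 6.37% of all genes rose and 7.38% fell. Eif3c, a core subunit of the initiation factor that loads the small subunit with mRNA, had 161, 161 and 165 CPM with V3.0 and 238, 242 and 229 CPM with V3.1 (log2 fold change 0.56, SE 0.06, adjusted p = 0.000303 by edgeR's quasi-likelihood test after Benjamini-Hochberg adjustment, higher in 3 of 3 mice). Eif4b, a cofactor of the initiation helicase, had 73.6, 76.0 and 70.6 CPM and then 52.3, 58.6 and 59.2 CPM, a log2 fold change of −0.36 (SE 0.08, adjusted p = 0.00936 by edgeR's quasi-likelihood test after Benjamini-Hochberg adjustment, lower in 3 of 3 mice). Eef2, the translocase of elongation, had 342, 359 and 341 CPM and then 247, 281 and 287 CPM, a log2 fold change of −0.34 (SE 0.07, adjusted p = 0.0109 by edgeR's quasi-likelihood test after Benjamini-Hochberg adjustment, lower in 3 of 3 mice). The kits overlapped for none of them, and the other 2 factors called were Eif3h, which rose by 0.22 on the log2 scale, and Eif4a2, which fell by 0.33. Of 20 ribosome assembly genes 2 rose, Nip7 (0.32) and Nop10 (0.27), and of 78 mitochondrial ribosomal protein genes 17 rose and 0 fell by edgeR, with 34 at an unadjusted p below 0.05, 15 higher and 0 lower by DESeq2, and a median log2 fold change of 0.16. Mrpl47 (0.48) and Mrps31 (0.45) rose most among them, and Mrpl47 did not pass by DESeq2 (adjusted p = 0.0540). In border-macrophage-like cells, neutrophil-like cells and the cocktail comparison, edgeR called 0 genes of these 4 lists, beside 0.453%, 0.503% and 1.15% of all genes. At most 2 of any list were at an unadjusted p below 0.05, and DESeq2 called 0. Many listed genes were not tested in the 2 rarer types. Of the 78 mitochondrial ribosomal protein genes 6 were tested in border-macrophage-like and 18 in neutrophil-like cells. Of the 20 assembly genes 3 and 4 were.

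Within microglia-like cells the member share varied from cell to cell more than counting error gives. After thinning each cell to 2000 UMIs, the mean share was 6.51%, 6.62% and 6.62% in the V3.0 libraries of mice 1, 2 and 3 and 7.05%, 6.93% and 6.83% in the V3.1 libraries. The SD over cells was 1.88 to 2.07 points, against 0.552 to 0.572 from counting alone. Cells with a share above 10% made up 4.39% to 7.22% of a library. Within libraries the Spearman correlation of the share with the mitochondrial share was 0.24 to 0.31, and with UMIs per cell −0.00 to 0.18, as descriptions over cells of 1 library. In border-macrophage-like cells the SD was 4.59 to 7.72 points around means of 14.9% to 19.6%.

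The clusters of microglia-like cells carried part of that spread. Cells with Klf2 and Cd34 among their top genes had 7.35% to 8.57% of UMIs in members over the 6 libraries, and cells led by Lpl, Apoe and Cd83, genes of lipid handling and activation, 6.86% to 9.60%. An interferon-responsive cluster led by Ifit3 and Isg15 had 7.22% to 7.84%. The lowest shares, 1.61% to 3.44% in the 5 libraries with enough such cells, were in 269 cells led by mitochondrially encoded genes, while a larger cluster of 2262 cells also led by such genes had 6.50% to 6.83%, and a cluster led by Gm47664 and Adrb1 had 5.36% to 5.82%. The kit difference was not seen alike in every cluster. Of 9 clusters with at least 10 cells in each library, 3 had all V3.1 values above all V3.0 values, and in the other 6 the kits overlapped. In 4 of the 9 every mouse had the larger value with V3.1. In the cells led by Gm47664 and Adrb1 the share was 5.36%, 5.39% and 5.42% with V3.0 and 5.82%, 5.59% and 5.46% with V3.1, without overlap. In the interferon-responsive cluster it was 7.28%, 7.22% and 7.84%, then 7.64%, 7.71% and 7.65%, so that the value of mouse 3 was lower with V3.1.

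What the members have in common beyond their symbols can be read from their genes. They lie on 19 chromosomes, with 13 of the 84 on chromosome 7. Of the 84, 8 share more than 10% of the 91-base stretches in their last 500 bases with another counted gene, and 53 do so with any annotated gene, pseudogenes included. RefSeq promoter sequences (GRCm38.p6) were matched for 65 members with 77 annotated starts. An unbroken run of at least 8 C or T bases, read on the gene's strand from 10 bases before to 20 bases from the start, was found for 24 of the 65, or 36.9%, and for 3517 of 27025 genes with a promoter in the same table. The first transcribed base was C in 33.8% of members and 18.9% of all genes. The windows of the 7 members drawn by library in the kit figure follow, 5′ to 3′, with capitals marking the longest C or T run. They were chosen because these members passed the test between kits. They are Rps19, with 3 annotated starts (chr7:24884582-24884611, chr7:24884666-24884695 and chr7:24884903-24884932, plus strand), Rpl13a (chr7:45128726-45128755, minus), Rpl39 (chrX:37085203-37085232, minus), Rpl31 (chr1:39367841-39367870, plus), Rpl24 (chr16:55966265-55966294, plus), Rps23 (chr13:90923112-90923141, plus) and Rps25 (chr9:44407704-44407733, plus).
Rps19 from 24884582: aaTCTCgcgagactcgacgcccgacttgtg
Rps19 from 24884666: cggtgagtgagggCTCTgggtcgcggctgt
Rps19 from 24884903: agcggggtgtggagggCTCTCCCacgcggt
Rpl13a: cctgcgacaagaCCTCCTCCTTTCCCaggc
Rpl39: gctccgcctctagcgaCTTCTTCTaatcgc
Rpl31: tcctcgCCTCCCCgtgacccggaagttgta
Rpl24: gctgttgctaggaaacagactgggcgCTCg
Rps23: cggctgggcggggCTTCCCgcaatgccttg
Rps25: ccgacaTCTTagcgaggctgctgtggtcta
Runs were 4, 4, 7, 14, 8, 7, 3, 6 and 4 bases long in this order, so that 2 of the 7 members had a run of at least 8. A run in a window says nothing of whether the transcript starts there in these cells.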

How the data were processed

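The authors deposited counts: UMIs per gene and barcode, made with Cell Ranger 5.0.0 on mm10 (GRCm38), with 10X's filtered Ensembl annotation. Barcodes inside the limits on genes, UMIs and mitochondrial share given above were clustered (scanpy 1.11.5) without members and named from markers, and UMIs were summed per library and cell type where at least 10 cells were present. Sums were tested with edgeR 4.0.16 (quasi-likelihood, TMM, filterByExpr, two-sided, Benjamini-Hochberg over all genes), without mouse as a term, and with DESeq2 1.42.0 as an alternative. The fit of kit by cell type had library as a block. The cocktail was tested on sums per mouse, assuming that the lone DNC-INHIB mouse varied like the others. Libraries of 1 mouse were paired by the labels: residuals of the 500 most variable genes correlated at 0.362, 0.503 and 0.189 within mice 1, 2 and 3. Between mice the correlations were negative, which centring each kit on the mean of its 3 mice favours by itself. CPM are counts per 1e6 of the sum. Members named for a kit difference were up to 5 with the largest rise and 5 with the largest fall among those called that moved the same way in 3 of 3 mice. Others named were taken from the 5 with the most and the fewest UMIs, 5 at each end of the cell-type ratios, paralogs with their parents, Rack1 and Rpsa. Some genes are not reported here. The members and lists were chosen with earlier results of these data known.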

Additional observations from a re-analysis of the deposited data

Results flagged for a closer look

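Among 109 groups of 4 to 10 values, 9 held a library far from the rest, where chance gives about 1 in 20. The V3.0 library of mouse 3 had 21.5% of its barcodes passing, against 70.0% to 76.8% elsewhere, and a median of 809 UMIs per barcode, against 3031 to 3409. In border-macrophage-like cells, the V3.0 library of mouse 1 stood low for the member share (15.9%, others 19.0% to 19.9%), the V3.0 library of mouse 2 high for Rpl39 (5063 CPM, others 3895 to 4094), and the V3.1 library of mouse 3 high for Rpl12 (2199 CPM, others 1329 to 1561). In microglia-like cells, Rpl36a was high in the V3.1 library of mouse 1 (407 CPM, others 358 to 375), and Rpl3l in the V3.0 library of mouse 2 (0.211 CPM, others 0 to 0.0604). In neutrophil-like cells, Rpl38 was high in the V3.0 library of mouse 3 (597 CPM, others 383 to 463), and Rpl39l was seen in the V3.1 library of mouse 1 alone (2.90 CPM, from 1 UMI). The 9687 barcodes that failed the cell filter, used in no comparison, had 3.96% of their UMIs in members: 6.31% in the V3.0 library of mouse 3, which held 3453 of them, and 2.21% to 3.87% in the other 5. No cause was tested for any of these.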

How the results depend on the processing

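Of 298 values over 28 group results, 239 stayed close to the reported value and 59 moved, and the causes were not tested. Close meant within a fixed fold for counts of calls, and within the spread of libraries or mice for shares. Counts of 0 that stayed 0 were taken as close, and a count of calls has no sign to reverse. Among the untested share differences 7 values changed sign, 6 of the cocktail and 1 of the neutrophil-like kit difference (−0.375 points, 0.121 without marker-poor cells). Kit, microglia-like: members higher (13) were 34 with mouse as a block, 5 scaled to members and 0 to 7 with a library or mouse left out, and members lower (3) were 5 with library totals, 6 without the gene filter, 11 with the block, 9 scaled to members and 0 to 3 with one left out. Members past the second rule (0) were 2 with the block and 1 with library totals, without the gene filter, scaled to members, without mitochondrial genes, without the cluster of lowest share or without mouse 3. All genes called (1652) were 919 with equal cells, 3619 with the block and 302 to 1250 with one left out. Border-macrophage-like, all genes (7): 15 with the block. Neutrophil-like, members lower (2): 1 by DESeq2, 0 at 500 genes per cell, 0 with likely doublets out, 1 with members in the clustering, 1 without the gene filter, 5 with the block, 0 without marker-poor cells and 0 to 1 with one left out. All genes there (14) were 9 by DESeq2, 38 without the gene filter, 33 with the block and 4 to 16 with one left out. Kit by cell type, border-macrophage-like (1): 2 at 500 genes, 2 without the gene filter, 2 without marker-poor cells and 0 to 3 with one left out. Neutrophil-like (11): 6 at 500 genes, 0 without marker-poor cells and 9 to 24 with one left out. Cocktail, all genes (151): 19 by DESeq2, 64 with V3.1 alone, 78 with library totals and 68 scaled to members. The microglia-like share (6.79%) was 6.52% at 500 genes per cell, and the neutrophil-like share (3.14%) was 5.05% without S100a8 and S100a9. The cocktail share difference with V3.0 (0.0812 points) was −0.015 with equal cells, −0.122 with clusters weighted alike and 0.360 over all barcodes, and that with V3.1 (0.0414) was −0.0856 at 500 genes, −0.0750 without mouse 3, −0.00906 thinned and −0.0962 with clusters weighted alike. Over the 16 microglia-like and 2 neutrophil-like members called, 182 of 264 values stayed past the test, 82 did not and 0 reversed. Leaving out single DNC-NONE mice gave ratios with no test. Alternatives without marker-poor cells, without S100a8 and S100a9, without the microglia-like cluster of lowest share and with clusters weighted alike were chosen after seeing the data. Small cell numbers limit the rarer types, and 1 treated mouse limits the cocktail.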
